A study of Mus musculus with 6 samples.

Results

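The genes described here are 10 transcripts that encode the pores of the mitochondrial outer membrane and the core of the protein import machinery: Vdac1, Vdac2 and Vdac3, the outer membrane import subunits Tomm20, Tomm22, Tomm40 and Tomm70a, and the inner membrane import subunits Timm23, Timm50 and Timm44. They were taken by name from the deposited gene tables, where they are 10 of 54532 genes, and all 10 passed the filter on low counts that left 15816 genes for testing. RNA-sequencing was performed on kidney tissue of 3 WT mice (kidneys 1, 2 and 3) and 3 Trpm2-/- mice (kidneys 1, 2 and 4). All 6 animals, labelled C57BL/6J and 6 to 8 weeks old, had received cisplatin, and per the study's methods this was 1 injection of 18 mg/kg given 72 h before the kidneys were taken from male mice. The methods give an older age range for cisplatin-treated mice than the labels do. Trpm2-/- mice carry a body-wide allele that lacks a pair of exons of Trpm2, a calcium-permeable cation channel opened by oxidative stress, so that a protein without part of its membrane region and without channel function is made. No untreated kidneys were analysed here, so each value compares the genotypes after cisplatin.

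Voltage-dependent anion channels (VDACs) are beta-barrel pores through which ATP, ADP, metabolites and ions cross the mitochondrial outer membrane. Almost all mitochondrial proteins are encoded in the nucleus, and they enter through the translocase of the outer membrane (TOM). Those carrying a cleavable presequence then pass through the TIM23 translocase of the inner membrane and are pulled into the matrix by an ATP-driven motor. The tubules of the kidney, the proximal tubule above all, are rich in mitochondria and take up cisplatin.

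The libraries held 14053307 to 17150089 gene counts, and the 10 genes had between 617 and 12689 counts in each library. Levels are given in CPM, counts scaled to a common library total after TMM normalization. By raw library totals, without TMM normalization, 3 counts correspond to 0.175 to 0.213 CPM. Trpm2 itself had 5, 5 and 27 counts in WT kidneys and 10, 16 and 20 counts in Trpm2-/- kidneys. A gene count also takes in exons outside the deletion, so these values do not check the genotype labels. Genes of the mitochondrial genome made up 4.43% to 4.72% of counts in WT kidneys and 7.91% to 11.0% in Trpm2-/- kidneys. All 10 marker genes of the proximal tubule were called lower in Trpm2-/- kidneys in the test described next, which called 7.28% of all genes lower. Their summed level was 4773 to 6423 CPM in WT and 2021 to 2476 CPM in Trpm2-/- kidneys, and none was at 0 in any library. In bulk tissue, fewer cells of a type and less RNA per cell cannot be told apart.

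To examine whether the pores and the import machinery differed between genotypes, each gene was compared with edgeR's quasi-likelihood test, and a gene was called at a Benjamini-Hochberg adjusted p under 0.05. Vdac1, the most abundant of the 10 transcripts, fell to 54.7% of its WT level, and Timm50, the receptor subunit of the TIM23 complex, fell to 66.6%. The other 8 genes were not called, and their levels in Trpm2-/- kidneys lay between 74.3% and 99.8% of WT. The 2 called genes are 2 of 10, beside 7.28% of all genes tested that were called lower. None of the 10 was called higher, with 0 also at an unadjusted p under 0.05 and 0 by DESeq2 or limma-voom, beside 4.74% of all genes. The median log2 fold change of the 10 was -0.33, against 0.02 over all genes tested. All 10 estimates were below 0, beside 7661 of the 15816 genes tested, but that of Tomm70a was only -0.0026. None passed the threshold of the study, an absolute log2 fold change above 1 with a p under 0.05, which 4.10% of all genes passed in the lower and 3.50% in the higher direction. All 3 Trpm2-/- kidneys lay below all 3 WT kidneys for 4 of the 10 genes (Vdac1, Vdac3, Tomm20 and Timm50), where 16.8% of all genes showed that order.

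**Figure D1:**
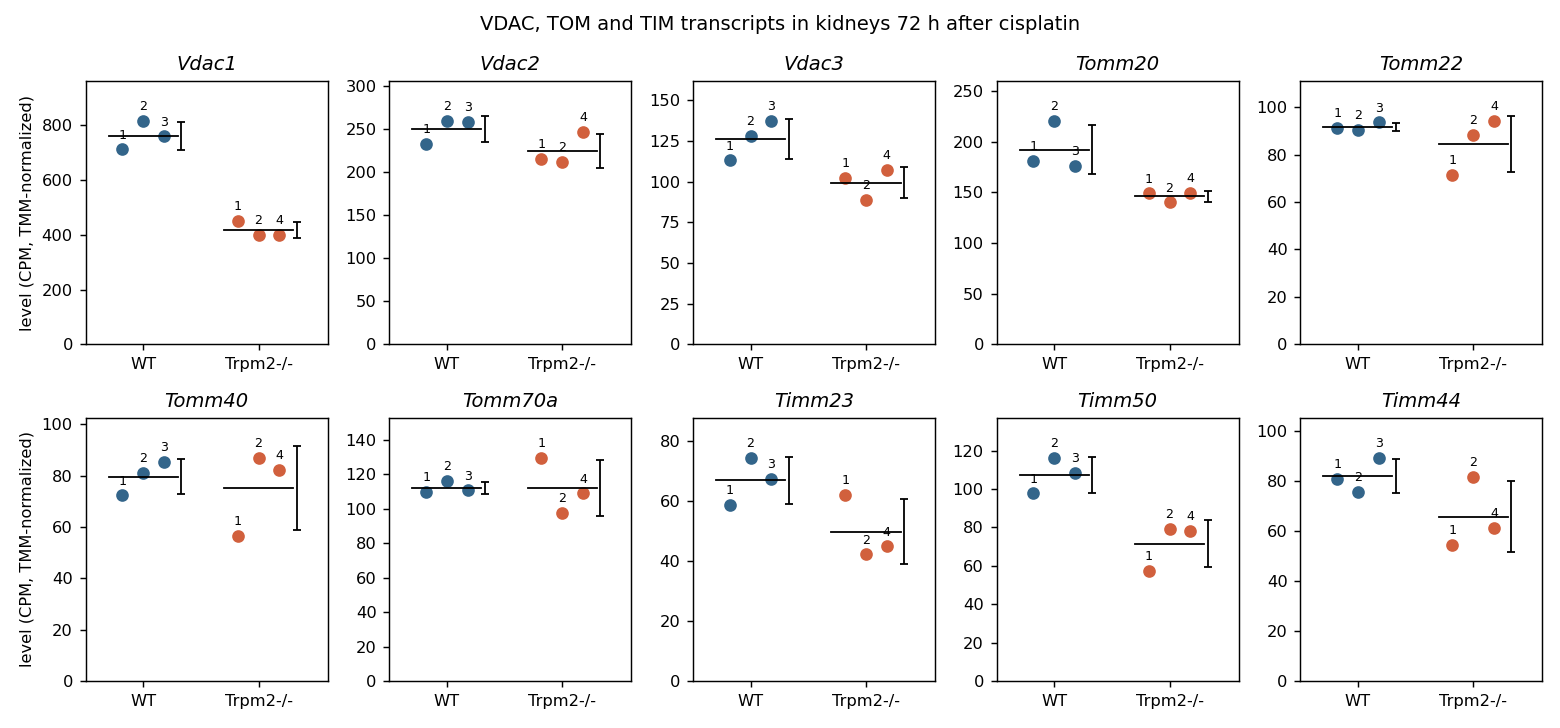
Each panel plots the level of 1 gene in CPM (y axis, from 0) in WT and Trpm2-/- kidneys (x axis), with 1 point per kidney carrying its number, a line at the mean and a bar of 1 SD beside it (n = 3 per genotype). Points of the 2 genotypes are apart for Vdac1, Vdac3, Tomm20 and Timm50 and interleave for the other 6 genes.

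The promoters of the 2 genes that were called are shown because both move in the same direction, each as the stretch from 250 bases before to 50 bases after the annotated start (RefSeq, GRCm38.p6). Capitals mark a match to a motif of a regulator of mitochondrial genes. In Vdac1 (chr11:52360601-52360900, plus strand) this is CCGGAAG, the core recognised by GABPA, an ETS factor, and in Timm50 (chr7:28311997-28312296, minus strand) it is AAGATGGCG, recognised by YY1.
Vdac1: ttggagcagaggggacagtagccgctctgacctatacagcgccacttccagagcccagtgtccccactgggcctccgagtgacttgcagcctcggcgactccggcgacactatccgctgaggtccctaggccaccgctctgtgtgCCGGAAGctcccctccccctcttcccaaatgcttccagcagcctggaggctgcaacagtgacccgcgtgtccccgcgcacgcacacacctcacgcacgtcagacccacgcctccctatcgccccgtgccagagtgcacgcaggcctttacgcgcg
Timm50: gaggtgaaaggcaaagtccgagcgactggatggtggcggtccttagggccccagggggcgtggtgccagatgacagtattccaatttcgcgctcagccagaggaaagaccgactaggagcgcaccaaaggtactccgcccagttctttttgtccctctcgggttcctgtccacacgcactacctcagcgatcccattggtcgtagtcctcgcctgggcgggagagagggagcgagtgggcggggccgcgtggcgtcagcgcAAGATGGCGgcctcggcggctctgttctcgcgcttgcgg
The search covered both strands of 32851 promoters of 300 bases for 6 motifs. Shares over all promoters are per promoter, while a gene counted when any of its promoters matched, so the units differ. CCGGAAG was present in 8.86% of all promoters and in those of 4 of the 8 genes found in the promoter table, namely Vdac1, Tomm22, Tomm70a and Timm23. AAGATGGCG was present in 1.403% of all promoters and, among the 8, in Timm50 alone. The NRF1 motif (4.60% of all promoters) and the SP1 motif GGGGCGGGG (11.4%) were both found in Tomm20. No promoter of these genes held the ERR motif TCAAGGTCA (0.423%) or the CRE motif TGACGTCA (1.79%). Vdac1 has a second promoter in the table, without a match. Vdac2 and Vdac3 had no entry. Of the 3 genes not called with the same motif as Vdac1, Tomm22 and Tomm70a had log2 fold changes of -0.12 and -0.0026, and Timm23 one of -0.43.

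Among the pores, Vdac1 (ENSMUSG00000020402, chromosome 11, 52360860 to 52389397, plus strand) encodes the main VDAC isoform of most tissues. Its level was 712.2, 815.3 and 759.3 CPM in WT kidneys and 451.3, 399.5 and 399.0 CPM in Trpm2-/- kidneys. The highest Trpm2-/- kidney lay far below the lowest WT kidney. The mean went from 762 ± 51.6 to 417 ± 30.1 CPM (SD, n = 3 each), a log2 fold change of -0.87 (SE 0.140, 95% interval -1.19 to -0.56, adjusted p = 0.00549 by edgeR). The call held when any 1 kidney was left out, with adjusted p of 0.0115 to 0.0357 by edgeR. No 75-base window of its transcripts is shared with another gene, and no annotated gene overlaps it.

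Vdac2 (chromosome 14, 21825238 to 21845879, plus strand), which also holds the apoptotic effectors BAK and BAX at the outer membrane, was at 232.8, 259.3 and 258.0 CPM in WT and at 215.6, 211.6 and 247.2 CPM in Trpm2-/- kidneys. Trpm2-/- kidney 4 lay within the WT range, and the genotypes overlapped. The log2 fold change of -0.15 (95% interval -0.45 to 0.14) was not called, with an adjusted p of 0.487 by edgeR.

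Vdac3 (chromosome 8, 22577075 to 22593813, minus strand) encodes the least abundant isoform. It measured 113.1, 128.4 and 137.2 CPM in WT and 102.2, 88.6 and 107.4 CPM in Trpm2-/- kidneys. The groups did not overlap, but the gap between the nearest kidneys was small. The log2 fold change was -0.34 (SE 0.135, 95% interval -0.65 to -0.04), with an unadjusted p of 0.0298 and an adjusted p of 0.129 by edgeR. Of its 75-base windows, 11.4% also occur in 2 other genes, including the pseudogene Vdac3-ps1, so part of its reads could have been assigned elsewhere. Its transcript has the lowest GC content of the 10, 39.1%, and in a fit corrected for GC content, added after the data had been seen, it was called, at -0.53 with an adjusted p of 0.0208 by edgeR.

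Per length, in the FPKM values of the deposited table, the 3 VDAC genes summed to 299.5, 340.7 and 321.9 in WT kidneys and to 208.1, 186.9 and 198.9 in Trpm2-/- kidneys, again without overlap. Vdac1 made up 79.6%, 79.9% and 78.5% of that sum in WT and 72.9%, 71.5% and 68.0% in Trpm2-/- kidneys. Its share was therefore lower in every Trpm2-/- kidney than in any WT kidney, with means of 79.3% ± 0.762 and 70.8% ± 2.52 (SD, n = 3 each). The share of Vdac2 went from 14.3% ± 0.343 to 21.03% ± 2.02 and that of Vdac3 from 6.35% ± 0.439 to 8.16% ± 0.612. Taken from raw counts, with no division by length, the Vdac1 share was 67.0% ± 1.05 in WT and 56.2% ± 2.96 in Trpm2-/- kidneys. The FPKM ratio of Vdac1 to Vdac2 was 5.55 ± 0.185 in WT and 3.40 ± 0.438 in Trpm2-/- kidneys, and that of Vdac1 to Vdac3 was 12.5 ± 0.946 and 8.72 ± 0.898. The ratio of Vdac2 to Vdac3 was 2.26 ± 0.106 in WT and 2.58 ± 0.161 in Trpm2-/- kidneys, with all Trpm2-/- kidneys above all WT kidneys. Each of these 3 ratios separated the genotypes fully, for a two-sided exact permutation p of 0.1, raw and adjusted over the 3 ratios, with n = 3 per genotype, the smallest p that this design allows.

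**Figure D2:**
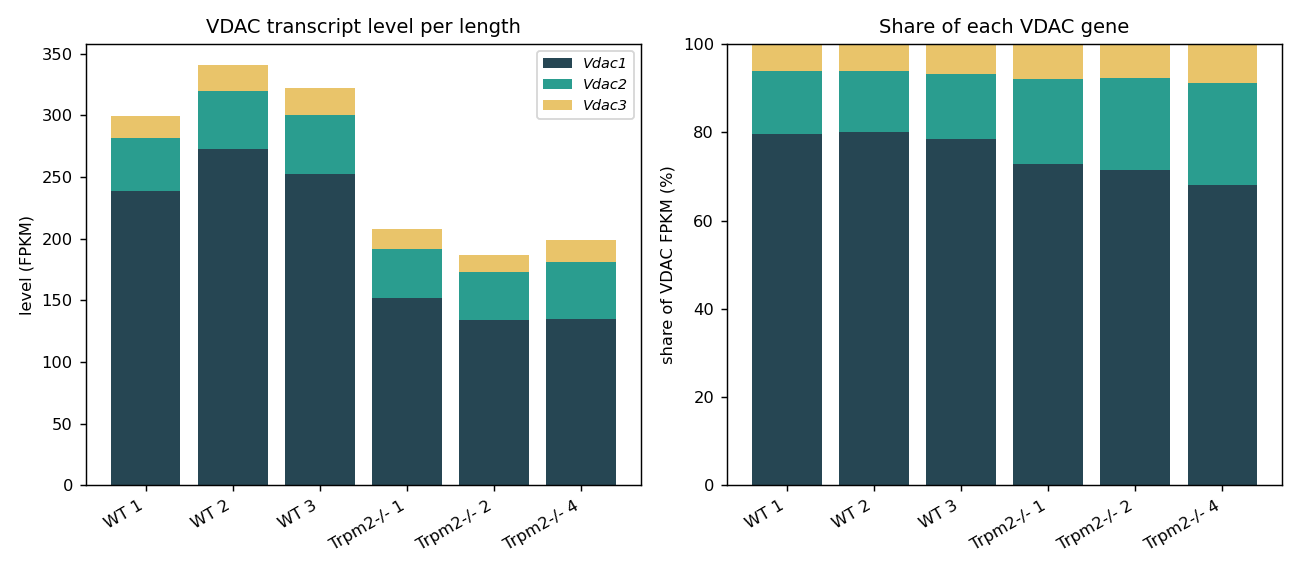
Left, the FPKM level of Vdac1, Vdac2 and Vdac3 stacked for each kidney (x axis, WT 1 to 3 and Trpm2-/- 1, 2 and 4). Right, the share of each gene in the VDAC FPKM sum in percent, where Vdac1 takes 78.5% to 79.9% in WT and 68.0% to 72.9% in Trpm2-/- kidneys.

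Of the 4 TOM genes, none was called, although 1 (Tomm20) had an unadjusted p under 0.05, and DESeq2 and limma-voom called 0 as well. Tomm20 (chromosome 8, 126930667 to 126945844, minus strand), the receptor that binds presequences, was at 180.8, 220.1 and 175.5 CPM in WT and at 148.7, 140.0 and 149.2 CPM in Trpm2-/- kidneys. All Trpm2-/- kidneys were below the WT kidneys, among which kidney 2 stood high. The log2 fold change was -0.40 (95% interval -0.70 to -0.09), with an adjusted p of 0.0873 by edgeR. Of its windows, 4.67% are shared with 9 other genes.

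Tomm22 (chromosome 15, 79670861 to 79673400, plus strand), the central receptor that organises the complex, was at 91.2, 90.5 and 93.6 CPM in WT and at 71.2, 88.1 and 94.1 CPM in Trpm2-/- kidneys. Tomm40 (chromosome 7, 19701313 to 19715438, minus strand), the beta-barrel channel through which precursors pass, was at 72.3, 81.0 and 85.5 CPM in WT and at 56.4, 86.9 and 82.3 CPM in Trpm2-/- kidneys. For both genes Trpm2-/- kidney 1 was the lowest of all 6, and the other 2 Trpm2-/- kidneys were near the WT range. Their log2 fold changes were -0.12 (95% interval -0.42 to 0.19) and -0.08 (95% interval -0.47 to 0.30), and for Tomm40 the estimate without Trpm2-/- kidney 1 was 0.086.

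Tomm70a (chromosome 16, 57121703 to 57156705, plus strand) encodes the receptor for carrier precursors without a presequence. Its level was 109.8, 116.4 and 110.7 CPM in WT and 129.6, 97.7 and 109.0 CPM in Trpm2-/- kidneys. Trpm2-/- kidney 1 was the highest and kidney 2 the lowest of all 6. The log2 fold change was -0.0026 (95% interval -0.31 to 0.31). The sign of this estimate turned in 10 of 20 alternative fits, so no direction can be given. Nit2, with 6046 counts beside 10698 for Tomm70a, overlaps it on the opposite strand, and the sources used here do not give the strand setting of the counting.

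Of the inner membrane genes, Timm50 (chromosome 7, 28305516 to 28312072, minus strand) encodes the receptor that hands precursors from TOM to the TIM23 channel. It measured 97.6, 116.2 and 108.3 CPM in WT and 57.3, 79.3 and 78.0 CPM in Trpm2-/- kidneys. The genotypes were apart, and Trpm2-/- kidney 1 was the lowest. The mean went from 107 ± 9.30 to 71.5 ± 12.3 CPM (SD, n = 3 each), a log2 fold change of -0.59 (SE 0.155, 95% interval -0.93 to -0.24, adjusted p = 0.0389 by edgeR). The call was lost on leaving out WT kidney 1 (adjusted p = 0.0550 by edgeR), WT kidney 2 (0.155), WT kidney 3 (0.141) or Trpm2-/- kidney 1 (0.0711), with log2 fold changes of -0.66, -0.53, -0.59 and -0.45. Its transcript has the highest GC content of the 10, 58.3%, and after correction for GC content the log2 fold change was -0.51 (adjusted p = 0.0374 by edgeR).

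Timm23 (chromosome 14, 32180162 to 32201898, minus strand), the channel-forming subunit, was at 58.7, 74.3 and 67.4 CPM in WT and at 62.0, 42.1 and 44.8 CPM in Trpm2-/- kidneys. Trpm2-/- kidney 1 overlapped the WT range. The log2 fold change was -0.43 (95% interval -0.81 to -0.04, adjusted p = 0.137 by edgeR), and without Trpm2-/- kidney 1 it was -0.62, which was called (adjusted p = 0.0360 by edgeR). Over its transcripts 52.1% of 75-base windows also occur in 8 other genes, so this level is uncertain. Timm44 (chromosome 8, 4259731 to 4275913, minus strand) anchors the import motor to the channel. Its level was 80.9, 75.7 and 89.1 CPM in WT and 54.2, 81.7 and 61.0 CPM in Trpm2-/- kidneys. Trpm2-/- kidney 2 lay among the WT kidneys. The log2 fold change was -0.32 (95% interval -0.69 to 0.05, adjusted p = 0.243 by edgeR), and without Trpm2-/- kidney 2 it was -0.51, which was called (adjusted p = 0.0470 by edgeR).

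Within each genotype the 10 genes spanned a wide range per length. In WT kidneys Vdac1 stood far above the rest at 254 ± 17.1 FPKM, followed by Tomm22 at 48.6 ± 0.734, Vdac2 at 45.9 ± 2.65 and Timm50 at 35.0 ± 3.00 FPKM (SD, n = 3). Tomm20 (34.3 ± 4.37 FPKM) and Timm23 (32.7 ± 3.79 FPKM) came next, and the last 4 were Vdac3 (20.4 ± 1.91 FPKM), Timm44 (19.5 ± 1.57 FPKM), Tomm40 (15.4 ± 1.26 FPKM) and Tomm70a (10.1 ± 0.323 FPKM). Of the neighbours in that order, the ranges over 3 kidneys overlapped for Timm50 and Tomm20, for Tomm20 and Timm23, and for Vdac3 and Timm44. In Trpm2-/- kidneys Vdac1 was again first at 140 ± 9.995 FPKM and Tomm70a last at 10.1 ± 1.47 FPKM, and Timm50 came after Tomm20 and Timm23 at 23.5 ± 4.07 FPKM. Most neighbours overlapped there, with gaps only after Vdac1, Vdac2 and Timm50. By mean FPKM, Vdac1 stood above 98.6% of all genes tested and Tomm70a above 71.8%. The FPKM sum of the 4 TOM genes was 108 ± 4.50 in WT and 96.2 ± 8.23 in Trpm2-/- kidneys, and that of the 3 TIM genes was 87.2 ± 6.39 and 63.8 ± 2.03, both without overlap. For TOM the nearest kidneys almost met, at 104.7 (WT kidney 1) and 103.7 (Trpm2-/- kidney 4). For TIM they were at 80.1 (WT kidney 1) and 66.1 (Trpm2-/- kidney 2).

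Averaged over the 10 genes, the log2 CPM centred on the mean of all 6 kidneys was 0.08, 0.23 and 0.20 in WT and -0.22, -0.17 and -0.12 in Trpm2-/- kidneys. The genes did not share 1 order of kidneys. Trpm2-/- kidney 1 was the lowest of all 6 for Tomm22, Tomm40, Timm50 and Timm44 and the highest for Tomm70a. Over all genes with a known GC content (15805 of 15816), the median centred log2 CPM of Trpm2-/- kidney 1 went from 0.13 in the fifth of genes with the lowest GC content to -0.15 in the fifth with the highest. In Trpm2-/- kidney 4 it went from 0.14 to -0.07, in Trpm2-/- kidney 2 from -0.05 to 0.10, and in WT kidneys from between -0.08 and -0.05 to between 0.03 and 0.06. After GC correction, 3 of the 10 genes were called lower (Vdac1, Vdac3 and Timm50), where 1971 of 15816 genes were called in either direction. Vdac1 then had a log2 fold change of -0.83 (adjusted p = 0.00637 by edgeR).

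**Figure D3:**
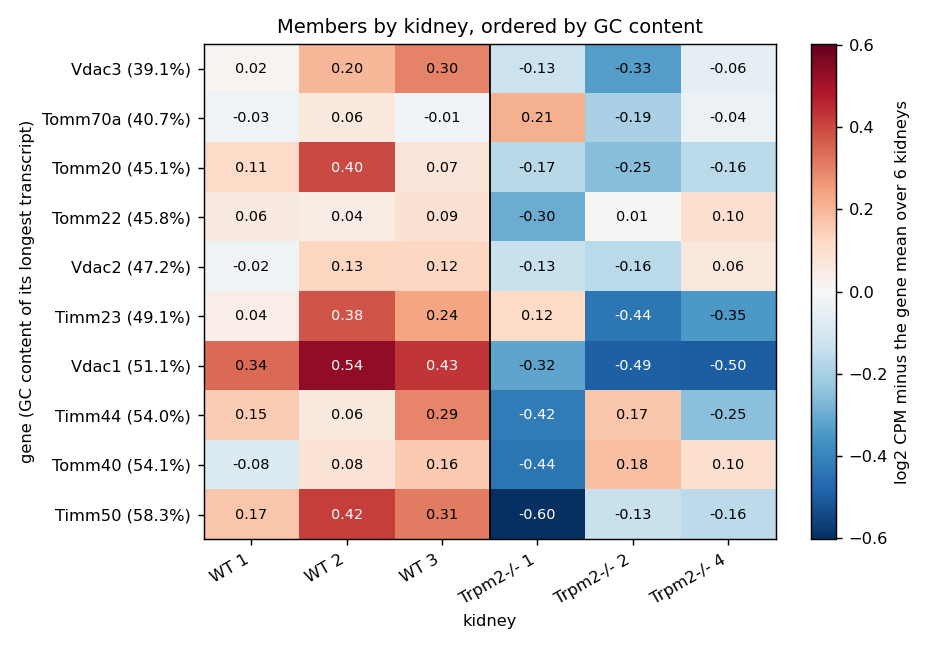
Rows are the 10 genes ordered by the GC content of the longest transcript (39.1% to 58.3%, top to bottom), columns the 6 kidneys, and each cell gives the log2 CPM minus the mean of that gene over the 6 kidneys (red above, blue below). Vdac1 is positive in every WT kidney and negative in every Trpm2-/- kidney, while Trpm2-/- kidney 1 is positive for Tomm70a and lowest for Timm50.

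The genes whose centred profile was most like the mean profile of the 10, among 9860 other genes with at least 10 CPM, were Fopnl, Bzw2, Aifm2, Eif2b5 and Bet1. Their root mean square differences over the 6 kidneys were 0.0235, 0.0292, 0.0301, 0.0324 and 0.0334 on the log2 scale. None of the 5 was called.

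The rest of the import machinery comprised 37 genes in 5 lists, of which 35 were tested. Of these, 9 fell and none rose (0 also at an unadjusted p under 0.05 and by DESeq2 or limma-voom), beside 7.28% of all genes called lower and 4.74% called higher. An estimate below 0 was found for 32 of the 35, beside 7661 of all 15816 genes, and the median log2 fold change was -0.46. All Trpm2-/- kidneys lay below all WT kidneys for 15 of them and above for 2, beside 16.8% and 16.7% of all genes. The count of 9 moved with single kidneys, as did the count of all genes called in either direction, which was 1902 with all kidneys. Without WT kidney 2 it was 1 (697 of all genes), without WT kidney 3 it was 1 (630), without Trpm2-/- kidney 1 it was 5 (1269) and without Trpm2-/- kidney 2 it was 14 (2059). DESeq2 called 16 of the 35 lower, beside 1444 of all 15816 genes called lower and 2539 in either direction.

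Of 4 further TOM genes tested (Tomm6 did not pass the filter), Tomm5, a small subunit that stabilises the complex, fell with a log2 fold change of -0.76 (SE 0.146, adjusted p = 0.0109 by edgeR). Tomm7, another small subunit, had an estimate of similar size, -0.79, with an SE of 0.282 and was not called (adjusted p = 0.1001 by edgeR). Tomm40l, a Tomm40 homologue, and Tomm34, a cytosolic cochaperone, were at -0.22 and 0.02. The 1 of 4 called stands beside 7.28% of all genes called lower.

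Of 10 further genes of the TIM23 complex and its motor, 1 fell, Dnajc19, a J-protein of the inner membrane, with a log2 fold change of -0.77 (SE 0.170, adjusted p = 0.0203 by edgeR). Hspa9, the matrix chaperone that drives the motor, went from 828 ± 46.2 to 595 ± 48.1 CPM, a log2 fold change of -0.48 that just missed the threshold (adjusted p = 0.0562 by edgeR). Its nucleotide exchange factor Grpel1 was at -0.52 and the J-protein Dnajc15 at -0.50, neither of them called. The 1 of 10 called by edgeR is near the 7.28% of all genes called lower. DESeq2 called 6 of the 10 lower, beside 1444 of all 15816 genes.

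The carrier pathway, formed by the TIM22 translocase and the small TIM chaperones of the intermembrane space, had 2 of 9 genes lower. The share called lower over all genes tested was 7.28%. Timm22, its channel, fell by 0.63 and the small chaperone Timm8a1 fell by 0.62 on the log2 scale (adjusted p of 0.0247 and 0.0314 by edgeR). Timm8b and Timm9 were at -0.37 and -0.39 and were not called. Of 7 genes that insert beta-barrels such as the VDACs (SAM) or fold intermembrane space proteins (MIA), 3 fell, beside that same share. They were Samm50, the core of the insertion machinery (191 ± 17.1 to 114 ± 20.7 CPM), its partner Mtx2 (76.5 ± 4.98 to 57.1 ± 2.00 CPM) and Aifm1, which anchors the oxidative folding enzyme (117 ± 7.22 to 65.6 ± 2.41 CPM). Their log2 fold changes were -0.74, -0.42 and -0.84, with adjusted p of 0.0174, 0.0483 and 0.00359 by edgeR. Mtx1 was at -0.48 and was not called (adjusted p = 0.0605 by edgeR).

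Of 5 presequence-processing genes tested (Immp2l did not pass the filter), 2 fell, beside 7.28% of all genes called lower. Pmpcb, the catalytic subunit of the matrix processing peptidase, and Mipep, an intermediate peptidase, had log2 fold changes of -0.64 and -0.61 (adjusted p of 0.0215 and 0.0260 by edgeR). Immp1l and Xpnpep3 were at -0.58 and 0.09 and were not called.

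**Figure D4:**
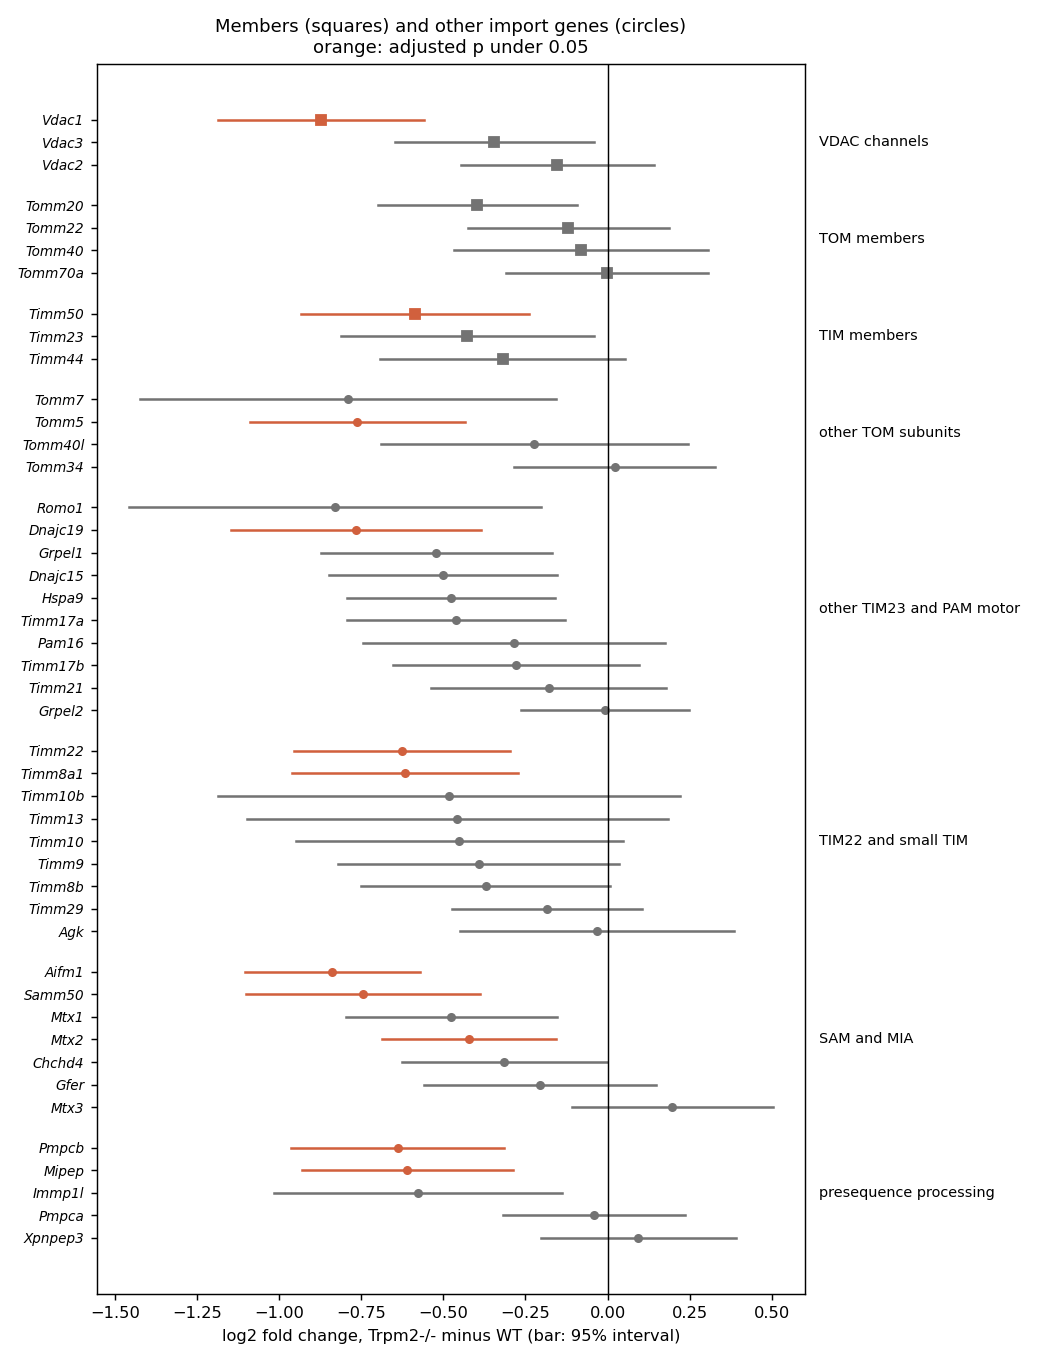
Log2 fold change of Trpm2-/- against WT kidneys (x axis) with its 95% interval (bar) for the 10 genes of the pores and core import machinery (squares) and the 35 other import genes tested (circles), grouped by complex. Genes in orange were called at an adjusted p under 0.05, which are 2 of the 10 and 9 of the 35, and all of these lie left of 0.

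Of 6 genes that fold or degrade imported proteins in the matrix, 4 fell, with a median of -0.66 over the 6. Among all genes tested, 7.28% were called lower and 4.74% higher. The chaperone Trap1 fell by 0.83, the chaperonin Hspd1 by 0.72 and its cochaperonin Hspe1 by 0.75, and Clpx, the unfoldase of the Clp protease, fell by 0.61 on the log2 scale (adjusted p of 0.00491, 0.0112, 0.0301 and 0.0210 by edgeR). Of 12 partners of VDAC or of the permeability pore, 1 fell, which is near the share over all genes, and 2 rose. Slc25a5, an ADP/ATP carrier of the inner membrane that exchanges nucleotides with the VDACs, fell from 885 ± 19.2 to 447 ± 58.6 CPM (log2 fold change -0.99, adjusted p = 0.00457 by edgeR), while its homologue Slc25a4 was at -0.46 and was not called. Itpr3, a calcium release channel of the endoplasmic reticulum that contacts VDAC1, rose by 0.68, and the kinase Gsk3b rose by 0.58 (adjusted p of 0.0166 and 0.0497 by edgeR). Of 14 regulators of mitochondrial biogenesis, none was called, with 3 at an unadjusted p under 0.05 and 0 by DESeq2 or limma-voom. Gabpb1, a partner of GABPA, was at 0.35, the nuclear receptors Esrra and Ppara were at -0.43 and 0.98, and the coactivator Ppargc1a was at -0.46.

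The lower values of pore and import genes went with lower proximal tubule markers, for which the ratio of the summed WT level to the summed Trpm2-/- level was 2.53. The 4 thick ascending limb markers gave 1 lower gene and sums of 716 to 2163 CPM in WT and 196 to 835 CPM in Trpm2-/- kidneys, and the 4 collecting duct markers gave 2 lower genes and sums of 1189 to 1519 CPM and 643 to 827 CPM. The 4 tubular injury genes gave 1 higher gene and sums of 4369 to 5704 CPM and 7026 to 8224 CPM. Macrophages gave 1 lower gene of 4 (71.0 to 94.5 CPM in Trpm2-/-, 96.2 to 107 CPM in WT), with 1 lower by DESeq2 and 0 by limma-voom. The lowest count in that list was 4, near the floor of 3, and no single gene of it had all Trpm2-/- kidneys below all WT kidneys. Fibroblasts gave 1 higher of 4 (46.8 to 124 CPM in Trpm2-/- and 44.7 to 72.1 CPM in WT). In the same order, no gene was called in the lists of distal convoluted tubule (30.7 to 180 and 131 to 150 CPM), intercalated cells (178 to 285 and 195 to 258 CPM), podocytes and endothelium. Podocyte and endothelial sums in Trpm2-/- kidney 4 were 385 and 142 CPM, above the 114 and 35.6 CPM that the other Trpm2-/- kidneys reached at most and the 136 and 67.7 CPM reached in WT. No tested marker was at 0 in any library. The marker counts stand beside 7.28% of all genes called lower and 4.74% called higher. Among single genes tested, 16.8% had all Trpm2-/- kidneys below all WT kidneys and 16.7% had them above. The part of these markers in the pore and import result was not tested. Without Trpm2-/- kidney 4, 2 of the 10 genes and 7 of the 35 other import genes were called lower. In that fit 1813 of 16251 genes were called in either direction.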

How the data were processed

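Per the labels, total RNA came from a Trizol extraction, and the study used Illumina sequencing. The processing notes name HISAT2, StringTie and mm9, while 98.3% of gene positions in the tables equal GENCODE M21 (GRCm38), including those of all 10 genes, so positions are given in GRCm38. The authors deposited whole-number read counts per gene, without normalization, and FPKM values, which they divided by gene length and library size. Strand settings are not given in the sources used here.

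Counts were tested in R 4.3.3 with edgeR 4.0.16 (filterByExpr, TMM, genotype only, two-sided quasi-likelihood test) and Benjamini-Hochberg adjustment over 15816 genes, tested on simulated data first. Each standard error was taken as the size of the log2 fold change over the root of the F statistic. limma 3.58.1 and DESeq2 1.42.0 served as alternatives. FPKM values were used for levels per length and, in the alternatives, as log2(FPKM + 1). GC content, 75-base windows and overlaps came from GENCODE M21, and promoters from RefSeq. The floor of 3 counts covers counting error only.

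The genes and lists were chosen with earlier results of these data known. Named genes were all 10 plus up to 4 of each import or context list with the smallest p, and the 5 with the most similar profile. Libraries of the same genotype differed by far more than sampling noise, with a chi-square of at least 13.5 per degree of freedom, so each counted as 1 sample. Nothing in the labels says that samples are separate litters or batches, and p-values measure the spread between these kidneys.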

Additional observations from a re-analysis of the deposited data

How the results depend on the processing

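Of 20 alternatives, 19 kept the call of Vdac1, and 10 kept that of Timm50. Over all 20, the log2 fold change of Vdac1 was -0.94 to -0.82 and that of Timm50 was -0.67 to -0.45. The count of the 10 genes called lower was 1 with upper quartile scaling (1976 of 15816 genes called in either direction, against 1902 of 15816). In limma it was 1 on log2(FPKM + 1) (1607 of 15816) and 1 on log2(FPKM + 0.1) (1133 of 15816). It was also 1 on log2(FPKM + 1) with a mean FPKM of at least 1 (1461 of 12484). Leaving out 1 kidney gave 1 to 3, with 630 to 2059 of all genes called in either direction. The count of other import genes called lower (9) was 16 with no filter on low counts (2954 of 28884 genes called in either direction, against 1902 of 15816). It was 16 by DESeq2 (2539 of 15816, of which 1444 were lower) and 2 in limma on log2(FPKM + 0.1) (1133 of 15816). Leaving out 1 kidney gave 1 to 14. The median of the 10 genes stayed between -0.38 and -0.27 when leaving out 1 kidney. The cause of these changes was not tested. The GC correction, chosen after seeing the data, gave 3 and 11, with 1971 of 15816 genes called in either direction.

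With the replicate number as a block, 1 of the 10 genes (Vdac1) and 3 other import genes were called lower, and with replicates 1 and 2 only, 0 and 3. Only numbers 1 and 2 are shared, so both fits take the genotype effect from kidneys 1 and 2 of each genotype. The block left 1 residual degree of freedom. The labels do not say that the shared numbers pair animals. The correlations of deviations were 0.0641 and -0.0120, where pairs with unlike numbers ranged from -0.248 to 0.217. Such values cannot decide whether animals were paired. Over all genes the block called 1002 genes in either direction, and replicates 1 and 2 only called 915 of 15909, against 1902 without a block.

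Leaving out 1 kidney, Tomm40 ranged from -0.20 to 0.086, above 0 without Trpm2-/- kidney 1, and Tomm70a from -0.12 to 0.086. Tomm70a was above 0 with DESeq2 size factors (0.0038), upper quartile scaling (0.033), at least 1 CPM in 3 samples (0.0051), the DESeq2 Wald test (0.0039), limma on log2(FPKM + 1) with and without the mean FPKM minimum (0.00026 in both), without genes of the mitochondrial genome (0.011), and without WT kidney 2 (0.021), Trpm2-/- kidney 2 (0.086) or Trpm2-/- kidney 4 (0.029).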
